A study of Mus musculus with 7 samples.

Results

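Photoreceptor fate transcription factors were followed in sorted cells of embryonic mouse retina: Otx2, Crx, Nrl, Nr2e3, Prdm1, Thrb, Rxrg and Rorb. These 8 genes were chosen by name for their place in the regulatory network of rods and cones, and they are 8 of the 16143 genes in the deposited transcript tables. The retinas came from ICR mice, an outbred stock, were taken and electroporated at embryonic day 17.5 per the sample labels (the design text of the series gives day 17), and then spent 2 days in culture. All explants received a plasmid for EGFP, a green fluorescent protein. Of the 7 libraries, 3 came from explants that also received a control plasmid (control) and 4 from explants that also received a hairpin RNA plasmid directed at Kmt2f (shKmt2f), an alias of Setd1a, which encodes a histone H3 lysine 4 methyltransferase. EGFP-positive cells were sorted, so each library holds cells that took up plasmid and not the whole retina, and cDNA was made from 1 ng of RNA. The labels do not tell whether replicate libraries are from different animals or explants, and the p-values below then cover the spread between libraries only, which may be technical.

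In the mouse retina, postmitotic precursors that express OTX2, a homeodomain protein, can become photoreceptors or bipolar cells. OTX2 turns on its relative CRX, which drives most photoreceptor genes, and PRDM1 (also called BLIMP1), a zinc finger repressor that holds back bipolar genes in these precursors. The nuclear receptor RORβ acts upstream of NRL, the leucine zipper protein that sets rod fate, and NRL in turn activates NR2E3, a nuclear receptor that silences cone genes in rods. In cones, the thyroid hormone receptor encoded by Thrb and the retinoid X receptor encoded by Rxrg shape which opsin is made.

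Levels are in TPM, which gives each transcript's part of its library after division by length, so that levels of different genes can be set side by side. All transcripts of a gene were added up, and fold changes are shKmt2f minus control on the log2(TPM + 1) scale, which understates changes at low levels. Tests used limma with Benjamini-Hochberg adjustment over the 12456 genes that reached 1 TPM in at least 3 libraries, with a threshold of 0.05. All 8 factors reached that level. Depth is unknown, since TPM does not keep it. Each library held between 11840 and 12318 genes at 1 TPM or more, and pseudogenes took 24.2% to 30.9% of its TPM. As a check of the labels, the longest listed Setd1a transcript, of 6487 bases, stood at 0.830 ± 0.112 TPM in control (SD, n = 3) and at 0.385 ± 0.0451 TPM in shKmt2f libraries (SD, n = 4), 46.4% of control (exact permutation test, two-sided, p = 0.0286, the smallest that 35 splits of 7 libraries allow). This single transcript was below 1 TPM in every library, under the level used for the limma test, and no sum over the transcripts of Setd1a is given.

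The sequence before the starts of Crx-201 and Prdm1-201, the transcripts with the most TPM of their genes, and before both starts of Rorb is shown here. Transcripts of Crx and Rorb are followed by their start below, and Prdm1 had the largest rise of the factors. These stretches were chosen after the levels were seen. Sequences are from RefSeq promoter windows of GRCm38.p6, which matched all 8 factors with 14 windows, and each is on the minus strand, 5′ to 3′, cut where it meets an annotated exon. Capitals mark 3 motifs searched on both strands: TAATCC (also read as GGATTA), the homeodomain site preferred by OTX2 and CRX; AGGTCA, a half-site of nuclear receptors; and TGCTGA, part of the element bound by NRL. Among 32817 RefSeq windows of 250 bases, 6.25% held TAATCC, 14.0% held AGGTCA and 16.1% held TGCTGA, with 66.2% holding the E-box CANNTG, to which basic helix-loop-helix proteins such as NEUROD1 bind and which is not capitalised. The first stretch precedes Crx-201 at chr7:15879969-15880205, the next precedes Prdm1-201 at chr10:44458749-44458998, and the last pair precedes Rorb-203 at chr19:19111197-19111446 and Rorb-201 at chr19:19001118-19001367.
Crx-201 start: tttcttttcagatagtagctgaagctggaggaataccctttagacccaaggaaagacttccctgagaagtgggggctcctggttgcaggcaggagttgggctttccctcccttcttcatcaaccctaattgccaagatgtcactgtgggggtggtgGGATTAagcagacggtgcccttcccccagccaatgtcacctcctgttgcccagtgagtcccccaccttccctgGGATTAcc
Prdm1-201 start: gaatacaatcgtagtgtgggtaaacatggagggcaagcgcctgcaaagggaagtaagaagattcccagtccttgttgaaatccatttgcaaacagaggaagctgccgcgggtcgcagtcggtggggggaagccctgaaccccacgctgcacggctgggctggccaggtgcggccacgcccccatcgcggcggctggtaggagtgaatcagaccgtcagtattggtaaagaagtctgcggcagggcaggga
Rorb-203 start: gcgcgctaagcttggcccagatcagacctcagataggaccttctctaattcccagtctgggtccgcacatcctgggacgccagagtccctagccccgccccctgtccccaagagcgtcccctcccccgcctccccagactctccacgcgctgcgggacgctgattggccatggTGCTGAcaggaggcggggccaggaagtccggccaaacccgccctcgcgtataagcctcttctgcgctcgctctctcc
Rorb-201 start: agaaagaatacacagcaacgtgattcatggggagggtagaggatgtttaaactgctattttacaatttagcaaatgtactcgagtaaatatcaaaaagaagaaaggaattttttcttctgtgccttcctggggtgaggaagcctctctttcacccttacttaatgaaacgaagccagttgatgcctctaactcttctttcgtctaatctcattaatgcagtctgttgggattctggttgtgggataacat

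The Crx stretch held GGATTA at 94 and 21 bases before the RefSeq start, no AGGTCA, no TGCTGA and no E-box. Of the pair at Rorb, the stretch before Rorb-203 had 66.0% GC, 18 CpG and 1 TGCTGA, and the stretch before Rorb-201 had 39.2% GC, 4 CpG, none of the 3 motifs and 2 E-boxes. The Prdm1 stretch had 59.2% GC, 15 CpG, 2 E-boxes and none of the 3 motifs. Of the 14 windows of the 8 factors, 3 held TAATCC: that of Crx, 1 of 4 at Otx2 and 1 of 2 at Thrb. AGGTCA was in 2 windows, of Rxrg and Thrb, which did not pass, and TGCTGA in 2, of Otx2 and Rorb, which rose. Of the 3 capitalised motifs, only TAATCC was found both at factors that rose and at one that did not pass. The E-box was in 9 of the 14 windows, beside 66.2% of all RefSeq windows. It was found at Otx2, Prdm1 and Rorb, which rose, and at Nr2e3, Nrl, Rxrg and Thrb, which did not pass. A link between the motifs and the changes was not tested. A match of letters is a description of the sequence and not a bound site, and no match says only that the letters are not in that window.

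In shKmt2f libraries, 4 of the 8 factors were higher, namely Otx2, Crx, Prdm1 and Rorb, the factors of the early precursor and of the step above rod fate. The same 4 were the most abundant of the 8 in every library, so role in the network and level cannot be told apart here. Prdm1 rose most, by 1.29 on the log2(TPM + 1) scale, and Rorb by 0.85, Crx by 0.70 and Otx2 by 0.59. Correction for the GC content of transcripts lowered these values to 1.11, 0.36, 0.59 and 0.40, and correction for GC and length to 0.97, 0.26, 0.47 and 0.35. Rorb did not pass after either correction, nor Crx after that for GC and length. Prdm1 was the only one of the 4 that passed with each library left out in turn. The rod factors Nrl and Nr2e3 and the cone receptors Thrb and Rxrg did not pass the test in either direction, nor at an unadjusted p of 0.05. Of all tested genes, 14.1% passed, 10.4% higher and 3.69% lower, and the median fold change of all of them was 0.09. Group ranges did not overlap for the same 4 of 8 factors, higher in shKmt2f, and for none of the 8 were they lower. Over all tested genes, 19.2% had such ranges higher and 9.67% lower. In sorted cells pooled into a library, more cells of a type and more RNA of a gene per cell cannot be told apart.

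**Figure D1:**
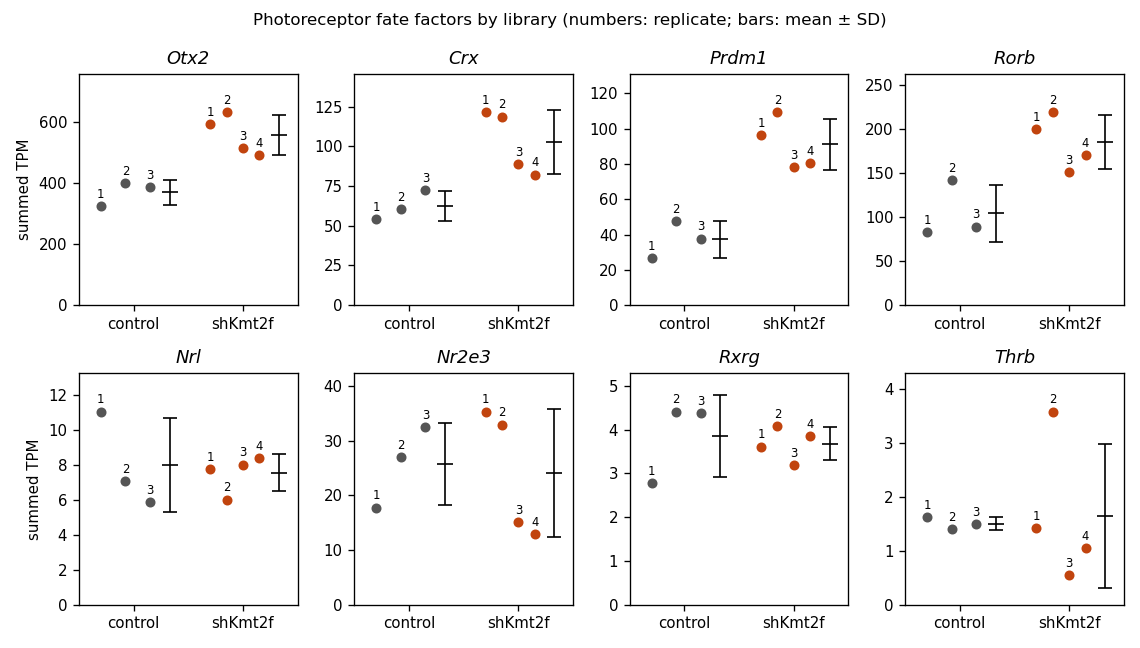
Summed TPM of each of the 8 factors (vertical axes, linear and starting at 0) in 3 control and 4 shKmt2f libraries, with points numbered by replicate and bars giving the mean ± SD. Otx2, Crx, Prdm1 and Rorb are higher in every shKmt2f library than in any control library, and the ranges of Nrl, Nr2e3, Rxrg and Thrb overlap.

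Otx2 (ENSMUSG00000021848; GRCm38 chromosome 14, 48657677 to 48673819, minus strand) stands at the head of the network and was the most abundant of the 8. Its level was 324.1, 400.4 and 385.7 TPM in the controls, in order of replicate, and 592.4, 632.1, 515.0 and 492.3 TPM in the shKmt2f libraries. All 4 shKmt2f libraries lay above all 3 controls. The mean went from 370.05 ± 40.5 TPM (SD, n = 3) to 557.9 ± 65.4 TPM (SD, n = 4), a difference of 0.59 log2 units (SE 0.12, adjusted p in limma = 0.0255). The locus is overlapped by the antisense gene Otx2os1 on the other strand and by Gm49154 on the same strand. The labels do not state whether strand was used in counting, so reads of Otx2 and Otx2os1 may not be separable.

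Crx (ENSMUSG00000041578; chromosome 7, 15865947 to 15879968, minus strand), the direct partner of OTX2 in photoreceptor gene activation, was next below Rorb in abundance. Control libraries had 54.2, 60.3 and 72.5 TPM, and shKmt2f libraries 121.5, 118.7, 88.8 and 82.2 TPM. The ranges did not overlap, with shKmt2f replicates 1 and 2 above replicates 3 and 4. From 62.3 ± 9.35 TPM (SD, n = 3) the mean rose to 102.8 ± 20.2 TPM (SD, n = 4), a difference of 0.70 log2 units (SE 0.17, adjusted p in limma = 0.0353).

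Prdm1 (ENSMUSG00000038151; chromosome 10, 44437177 to 44528501, minus strand), the repressor that keeps precursors from bipolar fate, had the largest rise of the 8. It stood at 26.8, 47.6 and 37.6 TPM in control and at 96.5, 109.4, 78.3 and 80.4 TPM in shKmt2f libraries. The lowest shKmt2f library was well above the highest control. The means were 37.3 ± 10.4 TPM (SD, n = 3) and 91.2 ± 14.6 TPM (SD, n = 4), a difference of 1.29 log2 units (SE 0.20, adjusted p in limma = 0.0129).

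Rorb (ENSMUSG00000036192; chromosome 19, 18930605 to 19111196, minus strand), the nuclear receptor above Nrl, had 82.4, 141.4 and 88.8 TPM in control and 199.7, 218.7, 151.0 and 169.6 TPM in shKmt2f libraries. Control replicate 2 came close to shKmt2f replicate 3, without overlap. The mean rose from 104.2 ± 32.4 TPM (SD, n = 3) to 184.8 ± 30.2 TPM (SD, n = 4), a difference of 0.85 log2 units (SE 0.20, adjusted p in limma = 0.0340). After GC correction the difference was 0.36 (adjusted p in limma = 0.105) and after GC and length correction 0.26 (adjusted p = 0.153). For each of Otx2, Crx, Prdm1 and Rorb the exact permutation p was 0.0286, the smallest this design can give.

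Nrl (ENSMUSG00000040632; chromosome 14, 55518978 to 55524981, minus strand), which commits precursors to the rod fate, was low in all libraries. It had 11.03, 7.07 and 5.86 TPM in control and 7.75, 6.002, 7.99 and 8.38 TPM in shKmt2f libraries. Control replicate 1 was the highest library, the other controls lay within the shKmt2f range or just below it, and the log2 fold change was -0.04 (SE 0.21, adjusted p in limma = 0.918).

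Nr2e3 (ENSMUSG00000032292; chromosome 9, 59942771 to 59960659, minus strand), the target of NRL that represses cone genes, varied more among the shKmt2f libraries than between the groups. Its levels were 17.7, 27.0 and 32.5 TPM in control and 35.3, 32.95, 15.04 and 12.9 TPM in shKmt2f libraries. The shKmt2f libraries thus held both its highest and its lowest values, and the log2 fold change of -0.18 had an SE of 0.38 (adjusted p in limma = 0.783). The locus is overlapped by an annotated antisense gene, Gm7616, and by Gm15507, a noncoding RNA gene on the same strand. The transcripts summed for Nr2e3 are mostly not coding: Nr2e3-206, of 380 bases, took 46.4% of its TPM, and the full-length coding Nr2e3-201 took 32.1%.

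The cone receptors were the least abundant. Rxrg (ENSMUSG00000015843; chromosome 1, 167598384 to 167639623, plus strand) had 2.78, 4.41 and 4.37 TPM in control and 3.61, 4.08, 3.19 and 3.85 TPM in shKmt2f libraries, so that all shKmt2f values lay inside the control range (-0.04 log2 units, SE 0.17, adjusted p in limma = 0.911). Thrb (ENSMUSG00000021779; chromosome 14, 17660261 to 18038090, plus strand) had 1.62, 1.40 and 1.49 TPM in control and 1.42, 3.58, 0.550 and 1.05 TPM in shKmt2f libraries. Its controls were close together and its shKmt2f libraries spread on both sides of them (-0.04 log2 units, SE 0.32, adjusted p in limma = 0.953). These 4 results do not show that Nrl, Nr2e3, Rxrg and Thrb had equal levels in the groups.

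The order of the levels was the same in all 7 libraries: Otx2, then Rorb, Crx, Prdm1, Nr2e3, Nrl, Rxrg and Thrb. Over all libraries the mean of Otx2 was 3.18 times that of Rorb, and the mean of Rorb was 1.76 times that of Crx. Crx was 1.25 times Prdm1, Prdm1 was 2.75 times Nr2e3, Nr2e3 was 3.21 times Nrl, Nrl was 2.06 times Rxrg and Rxrg was 2.37 times Thrb. The ranges over the 7 libraries of Otx2 and Rorb, of Nr2e3 and Nrl, and of Nrl and Rxrg did not overlap, and those of the other neighbours did.

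The libraries within a group also differed in a way that ran through several of the factors. In 6 of the 8 (Otx2, Crx, Prdm1, Rorb, Nr2e3 and Thrb), shKmt2f replicates 1 and 2 were both above replicates 3 and 4, as in 33.8% of tested genes. Nrl had the opposite order, as in 14.2% of tested genes. Control replicate 1 was the lowest control for 6 of the 8 (Otx2, Crx, Prdm1, Rorb, Nr2e3 and Rxrg), as in 56.1% of tested genes. Levels also moved with transcript length and base composition by library. For each doubling of length, log2 TPM relative to the mean of all libraries changed by -0.13 in control replicate 1, by -0.02 in both other controls and by 0.00 to 0.11 in shKmt2f libraries. For each 10 percentage points of GC it changed by 0.25, -0.04 and 0.41 in the controls and by -0.12 to -0.18 in shKmt2f libraries. Rorb, at 42.2% GC and a mean length of 7522 bases, and Prdm1, at 47.6% GC and 4009 bases, lie on the long and GC-poor side of the median tested gene (50.4% GC, 1592 bases). Otx2 had 47.5% GC and 2004 bases and Crx 49.6% GC and 2723 bases.

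Corrected per library for GC content, Prdm1 had an adjusted p in limma of 0.0082, Crx of 0.0428 and Otx2 of 0.0485. With correction for GC and then length, the adjusted p in limma was 0.0058 for Prdm1, 0.0499 for Otx2 and 0.0562 for Crx. GC correction left 5.08% of tested genes higher and 5.16% lower, and GC and length correction 5.23% and 5.48%, where median-ratio scaling gave 8.98% and 6.59% and a length-weighted sum 11.4% and 6.92%. Median-ratio scaling moved the median fold change of all genes from 0.09 to -0.02 and kept all 4 calls. The same 4 factors were called with other settings of the fit. These were no filter (5.69% of all genes higher), a filter of 5 TPM (12.2%), a pseudocount of 0.1 (9.54%), no trend in the prior (8.94%), the replicate number as a block over replicates 1 to 3 (8.45%), which leaves out shKmt2f replicate 4, and protein-coding transcripts only (13.4%).

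Prdm1 also passed without any 1 library, at log2 fold changes of 1.08 to 1.48 and limma adjusted p of 0.0018 to 0.0446. Otx2 and Crx passed only without control replicate 2 or shKmt2f replicate 4, and Rorb only without control replicate 2. In the other fits with 1 library left out, adjusted p for Otx2 ranged from 0.0506 to 0.0810, for Crx from 0.0590 to 0.115 and for Rorb from 0.0510 to 0.113, with fold changes of 0.50 to 0.63, 0.61 to 0.82 and 0.70 to 0.94. Except without control replicate 2, fewer genes passed in these fits than with all libraries. The share of all tested genes called higher was 1.16%, 19.7% and 1.78% without control replicates 1, 2 and 3, and 1.19%, 1.34%, 2.83% and 2.45% without shKmt2f replicates 1, 2, 3 and 4.

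**Figure D2:**
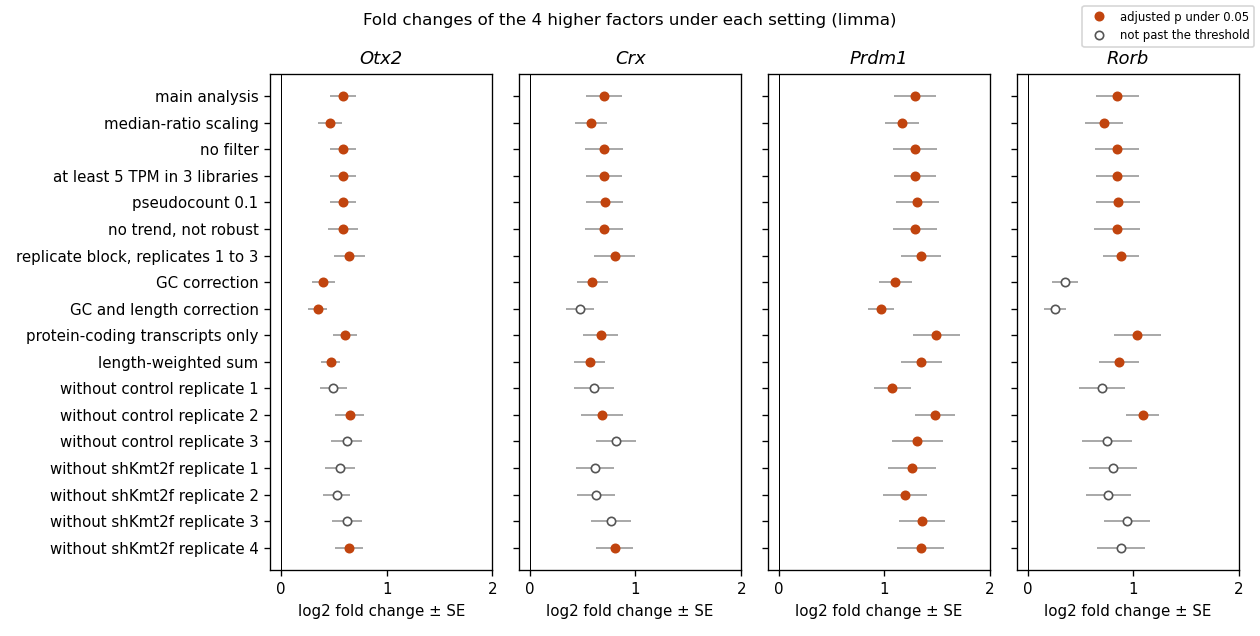
Log2 fold change (shKmt2f minus control, horizontal axis) ± SE of Otx2, Crx, Prdm1 and Rorb under the main analysis and 17 other settings, with filled points where the limma adjusted p is under 0.05. Prdm1 is filled in every row, and Rorb is open after the GC corrections and without any library but control replicate 2.

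Single transcripts showed where in each gene the higher TPM lay. The 8 factors have 37 listed transcripts, of which 28 reached the level for the test. Of these 28, 3 passed limma over all 37024 tested transcripts, all higher, where 1.44% of all transcripts were called higher. Without control replicate 2, 11 passed, beside 10.4% of all transcripts called higher, and without control replicate 3, 1 passed, beside 0.299%. With a pseudocount of 0.1, or without a filter, 0 passed in limma, with 15 at an unadjusted p under 0.05 in each, beside 22.5% and 19.1% of all transcripts. With the settings used here 15 of the 28 were under that p as well, beside 23.4% of all. Of the 20 tested transcripts of Otx2, Crx, Prdm1 and Rorb, 18 had a positive fold change and 13 had ranges that did not overlap, higher in shKmt2f, as did 14.6% of all tested transcripts. These 4 genes had already been seen to be higher, so their transcripts are no further evidence of it. In the authors' deposited table, which was made from the same libraries, 8 transcripts of the 8 factors have q under 0.05, all higher, beside 3.43% of all transcripts there.

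Prdm1 rose in both of its longest coding transcripts. Prdm1-201, of 5281 bases and 856 residues, had 13.4, 28.7 and 17.9 TPM in control and 54.7, 63.7, 42.9 and 44.0 TPM in shKmt2f libraries (1.36 log2 units, SE 0.25, adjusted p in limma = 0.0439). Prdm1-202, of 4025 bases and 823 residues, all of whose bases are also in Prdm1-201, had 2.63, 4.95 and 8.11 TPM in control and 22.2, 22.2, 14.7 and 18.9 TPM in shKmt2f libraries (1.80, SE 0.30, adjusted p = 0.0372). In both, every shKmt2f library was above every control. The retained-intron transcript Prdm1-203 stood at 10.6 ± 2.04 TPM (SD, n = 3) and 16.3 ± 2.60 TPM (SD, n = 4) and did not pass (adjusted p in limma = 0.0991). Prdm1-204, coding for 838 residues, stood at 1.52 ± 0.819 and 4.00 ± 1.898 TPM with overlapping ranges (adjusted p = 0.168).

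Otx2 was carried by Otx2-201, which codes for 289 residues and took 79.1% of its TPM. It had 276.2, 321.3 and 302.7 TPM in control and 453.6, 496.2, 406.4 and 388.4 TPM in shKmt2f libraries, and its limma adjusted p of 0.0528 missed the threshold although the ranges did not overlap. Otx2-202, whose start lies 2407 bases from that of Otx2-201 and whose product has 297 residues, passed. It had 33.4, 43.4 and 46.3 TPM in control and 86.7, 79.7, 66.5 and 65.4 TPM in shKmt2f libraries (0.85 log2 units, SE 0.15, adjusted p in limma = 0.0428). Otx2-203, Otx2-204 and Otx2-209 had non-overlapping ranges, higher in shKmt2f, without passing limma (adjusted p of 0.0608, 0.162 and 0.0856), and Otx2-205, Otx2-206 and Otx2-208 had overlapping ones (adjusted p of 0.262, 0.836 and 0.395).

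At Crx, the long transcript from the upstream start had ranges that did not overlap, and the long transcript from the downstream start did not. Crx-201, which codes for 299 residues, had 32.1, 30.2 and 49.9 TPM in control and 87.9, 85.3, 54.4 and 60.3 TPM in shKmt2f libraries, ranges that did not overlap (0.93 log2 units, SE 0.23, adjusted p in limma = 0.0718). Crx-204, which starts 7580 bases further along the gene and codes for 323 residues, had 18.0, 24.6 and 17.1 TPM in control and 20.8, 18.5, 21.8 and 14.4 TPM in shKmt2f libraries (-0.07, SE 0.18, adjusted p = 0.866). The pair share 2765 bases, with 154 only in Crx-201 and 115 only in Crx-204, so the split between them rests on few bases. The shorter Crx-202, of the downstream start, and Crx-205, of the upstream start, had non-overlapping ranges, higher in shKmt2f, and did not pass (limma adjusted p of 0.0906 and 0.0770). Summed over transcripts by start, a sum chosen after their values were seen and given with no test, the upstream start went from 41.4 ± 11.4 TPM (SD, n = 3) to 80.7 ± 18.0 TPM (SD, n = 4), and the downstream start from 20.9 ± 4.82 to 22.1 ± 3.68 TPM. The upstream start held 66.3%, 56.1% and 75.2% of Crx TPM in control and 79.7%, 80.6%, 72.8% and 79.7% in shKmt2f libraries, with overlap between control replicate 3 and shKmt2f replicate 3.

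Rorb has a pair of long coding transcripts whose starts are 110079 bases apart. Rorb-203, from the upstream start, codes for 459 residues, the length of the form known as RORβ1, and Rorb-201, from the downstream start, codes for 470 residues, the length of RORβ2, the form known from retina and pineal gland. Rorb-203 had 55.6, 95.2 and 59.3 TPM in control and 153.3, 130.2, 96.7 and 103.2 TPM in shKmt2f libraries (0.80 log2 units, SE 0.23, adjusted p in limma = 0.0897). Rorb-201 was listed at 0 in 2 controls and at 2.76 TPM in control replicate 2, and stood at 3.93, 52.2, 15.4 and 23.2 TPM in shKmt2f libraries. Its ranges did not overlap, shKmt2f replicate 1 was close to control replicate 2, and it did not pass (adjusted p in limma = 0.0600). In the authors' deposited table Rorb-201 has a natural log effect of 6.99 and q = 0.0421. The pair share 8648 bases, and only 111 bases belong to Rorb-201 alone, so a listed 0 can be a failed estimate and is given as a listing only. The retained-intron Rorb-204 of the downstream start stood at 28.7 ± 6.21 TPM (SD, n = 3) and 32.7 ± 3.26 TPM (SD, n = 4) and did not pass (adjusted p = 0.504), as did not Rorb-205 at 4.54 ± 3.16 and 7.56 ± 1.43 TPM (adjusted p = 0.245). Summed by start, also after their values were seen, the upstream start took 67.2 ± 0.395% of Rorb TPM in control and 65.3 ± 7.88% in shKmt2f libraries. The downstream share was 23.3% in shKmt2f replicate 1 and 40.5%, 36.0% and 39.2% in replicates 2, 3 and 4, against 32.5%, 32.6% and 33.2% in the controls.

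**Figure D3:**
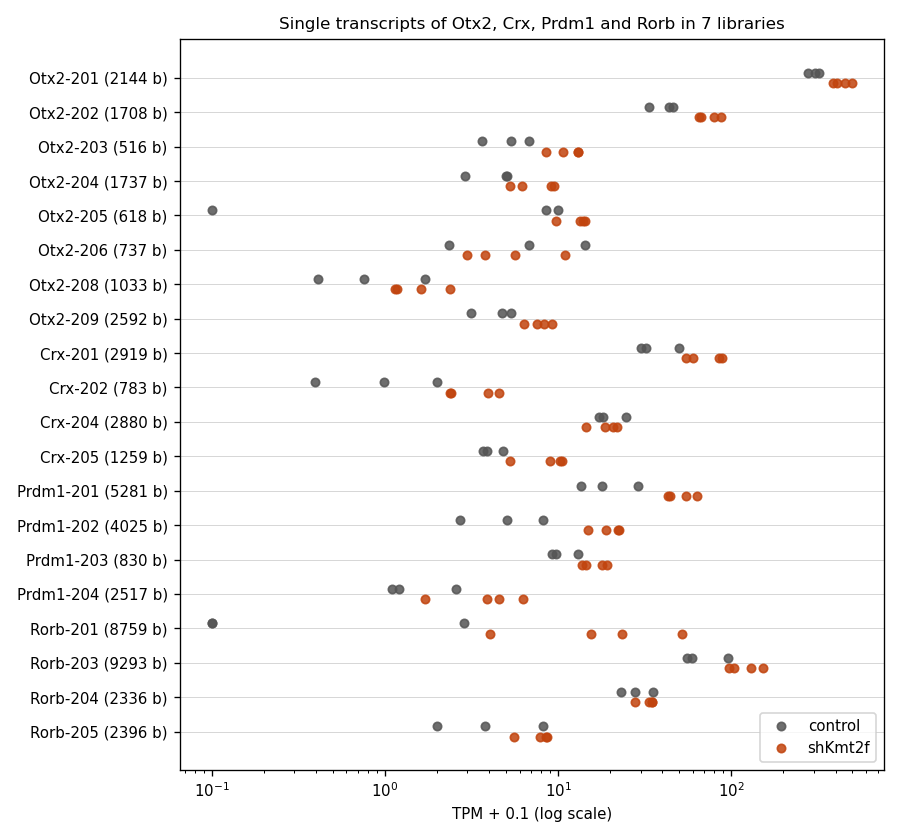
TPM + 0.1 on a log axis of each transcript of Otx2, Crx, Prdm1 and Rorb with a mean of at least 1 TPM, with lengths in bases, in 3 control and 4 shKmt2f libraries (1 point per library). Points at the left edge are transcripts listed at 0, and the groups of Crx-204 and Rorb-204, for example, overlap.

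Among the other factors, ranges that did not overlap were seen for 1 transcript. Rxrg-201, coding for 463 residues, had 1.22, 1.33 and 1.55 TPM in control and 0.671, 0.767, 0.837 and 1.18 TPM in shKmt2f libraries. It was lower in every shKmt2f library, as 6.97% of tested transcripts were, and did not pass (-0.35 log2 units, SE 0.18, adjusted p in limma = 0.299). Rxrg-204, with the same number of residues, stood at 1.73 ± 0.433 TPM (SD, n = 3) and 2.09 ± 0.324 TPM (SD, n = 4) (adjusted p = 0.597). For Nrl, Nrl-203, which codes for 237 residues, stood at 5.83 ± 1.54 and 5.11 ± 0.634 TPM (adjusted p in limma = 0.705), and Nrl-207 at 1.99 ± 1.17 and 2.21 ± 0.510 TPM (adjusted p = 0.775). For Nr2e3, the coding Nr2e3-201 stood at 9.55 ± 1.16 and 6.75 ± 3.09 TPM (adjusted p in limma = 0.349), Nr2e3-205 at 3.66 ± 1.22 and 2.54 ± 0.994 TPM (adjusted p = 0.445), Nr2e3-206 at 11.4 ± 4.43 and 11.5 ± 6.38 TPM (adjusted p = 0.939) and Nr2e3-209 at 0.836 ± 1.27 and 3.05 ± 1.22 TPM (adjusted p = 0.124). No transcript of Thrb had a mean of 1 TPM.

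The share of a gene's TPM held by its main transcript did not pass for any factor, and a single one among 8 could not have passed after adjustment. The change nearest to the threshold was that of Rxrg-204, from 45.2 ± 5.20% to 56.8 ± 5.93% of Rxrg (exact permutation p = 0.0857, adjusted over the 8 shares 0.343). Crx-201 went from 59.4 ± 9.31% to 69.7 ± 5.64% of Crx (exact permutation p = 0.143, adjusted 0.343), and Otx2-201 from 81.3 ± 3.50% to 78.2 ± 1.12% of Otx2 (p = 0.114, adjusted 0.343). Prdm1-201 held 52.6 ± 6.81% and 56.1 ± 1.65% of Prdm1 (exact permutation p = 0.343, adjusted 0.457).

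The balance between factors with linked roles was compared as a log2 ratio of TPM + 1. Nrl to Prdm1, the rod factor against the repressor of bipolar genes, was -1.21, -2.59 and -2.49 in control and -3.48, -3.98, -3.14 and -3.12 in shKmt2f libraries. It was lower in every shKmt2f library, by 1.33 on average (exact permutation p = 0.0286, adjusted over the 4 balances 0.114), and the difference was -0.89 without control replicate 1, which stood apart from the other controls. Nr2e3 to Crx was -1.56, -1.13 and -1.13 in control and -1.75, -1.82, -2.49 and -2.58 in shKmt2f libraries, again with no overlap, a difference of -0.88 (exact permutation p = 0.0571, adjusted 0.114). Neither passes after adjustment, and since 3 against 4 libraries allow no p under 0.0286, no single balance among 4 could. Prdm1 and Crx had already been seen to be higher, by 1.29 and 0.70, beside -0.04 for Nrl and -0.18 for Nr2e3. Both differences follow from these fold changes and are no separate result. Otx2 to Crx was 2.56 ± 0.158 in control and 2.44 ± 0.131 in shKmt2f libraries, with overlap (exact permutation p = 0.4, adjusted 0.533). Rxrg to Thrb was 0.94 in both groups, with SDs of 0.357 and 0.567 (exact permutation p = 1).

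The genes around these factors were taken from 5 lists, with 102 genes in all, of which 75 were tested, 11 were higher and 2 lower, with a median fold change of 0.32. Over all tested genes 10.4% were higher and 3.69% lower, and 59.3% had a fold change above 0, the shares against which the counts of each list below are to be read. At an unadjusted p under 0.05 in limma the shares of all tested genes were 23.2% higher and 9.14% lower. Among 24 tested regulators that act upstream of the factors or compete with them, 5 were higher and 1 was lower, with a median of 0.11. Both basic helix-loop-helix genes of photoreceptor precursors named here rose. Neurod4 went from 230.8 ± 95.2 to 684.9 ± 94.5 TPM (1.63 log2 units, SE 0.24, adjusted p in limma = 0.0114), and Neurod1 from 164.5 ± 64.5 to 434.1 ± 65.5 TPM (1.45, SE 0.23, adjusted p = 0.0129). Corrected for GC, and for GC and length, the fold change was 0.91 and 0.78 for Neurod4 and 1.03 and 0.92 for Neurod1, and both passed, while that of Isl1, given below, was 0.95 and 1.00, against 1.00 without correction. Hes5, a Notch target that keeps cells in the progenitor state, fell from 363.8 ± 28.0 to 222.3 ± 13.5 TPM (-0.71, SE 0.10, adjusted p in limma = 0.0099). Lhx4, shared by bipolar cells and cones, went from 4.32 ± 1.07 to 7.48 ± 0.833 TPM (adjusted p in limma = 0.0380), Isl1, of ganglion and bipolar cells, from 1.35 ± 0.636 to 3.65 ± 0.966 TPM (adjusted p = 0.0313), and Onecut1, of horizontal cells, from 0.586 ± 0.244 to 1.70 ± 0.411 TPM (adjusted p = 0.0313).

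None of 19 tested partners and co-regulators passed in limma, with 3 of 19 higher and 0 lower at an unadjusted p under 0.05, no more than the 23.2% and 9.14% of all tested genes, and a median of 0.04. The most abundant were Ncor1, a co-repressor of nuclear receptors, at 61.4 ± 27.1 and 99.5 ± 9.88 TPM (adjusted p in limma = 0.0642), Ncoa1, a co-activator, at 56.9 ± 13.3 and 65.9 ± 43.6 TPM (adjusted p = 0.949), and Fiz1, which binds NRL, at 46.0 ± 4.40 and 47.2 ± 4.63 TPM (adjusted p = 0.873). Ncor1 passed without control replicate 2 (log2 fold change 1.10, adjusted p = 0.0012).

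The tested targets of the rod and cone factors ranged in level from Pde6b, a rod phosphodiesterase subunit, at 1.25 ± 0.447 and 0.999 ± 0.361 TPM, to Gnb1. Of 10 tested rod targets, 0 rose and 1 fell in limma (4 higher and 1 lower at an unadjusted p under 0.05, beside 23.2% and 9.14% of all tested genes), with a median of 0.23: Gnb1, a transducin subunit of rods that other cells also use, from 536.1 ± 7.66 to 350.2 ± 53.8 TPM (-0.63 log2 units, SE 0.13, adjusted p in limma = 0.0261). Sag, the rod arrestin, stood at 38.5 ± 9.06 and 57.0 ± 14.7 TPM (adjusted p = 0.136) and Rom1, of the outer segment disc, at 36.5 ± 5.20 and 43.3 ± 7.83 TPM (adjusted p = 0.375). Of 7 tested cone targets, 3 were higher and none lower, beside 10.4% and 3.69% of all tested genes, with a median of 0.59. The most abundant cone targets, named after their values were seen, were Gngt2, at 149.5 ± 42.3 and 194.8 ± 35.02 TPM (adjusted p in limma = 0.217), and Gnb3, at 114.3 ± 21.9 and 151.4 ± 16.3 TPM (adjusted p = 0.0901), both transducin subunits of cones. Cngb3, a cone channel subunit, went from 1.52 ± 0.630 to 4.43 ± 0.267 TPM (adjusted p in limma = 0.0129), Gnat2, the cone transducin, from 10.7 ± 1.00 to 18.0 ± 1.31 TPM (adjusted p = 0.0188), and Kcne2 from 1.31 ± 0.724 to 3.24 ± 0.796 TPM (adjusted p = 0.0429). Gucy2e, Pde6c, Cnga3, Arr3 and Pde6h were below the level for the test. The cone receptors Thrb and Rxrg themselves did not pass, as given above.

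Genes shared by rods and cones had a positive fold change in 15 of 15 tested cases, beside 59.3% of all tested genes, and 3 passed, higher, beside 10.4% of all, with a median of 0.46. Impg2, of the matrix between photoreceptors, rose from 9.44 ± 5.89 to 27.7 ± 7.31 TPM (1.59 log2 units, SE 0.38, adjusted p in limma = 0.0327), and Isl2, a LIM homeodomain gene also used by ganglion cells, from 3.18 ± 0.516 to 7.66 ± 1.84 TPM (adjusted p = 0.0181). Of the 13 genes of these lists past the threshold, 4 passed without any 1 library (Hes5, Neurod4, Neurod1 and Cngb3). After GC correction 10 of the 13 passed, without Onecut1 (0.63 log2 units), Kcne2 (0.63) and Impg2 (0.97). After GC and length correction 8 passed, and Cngb3, at 1.13 without correction, stood at 0.38 (adjusted p in limma = 0.0998).

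**Figure D4:**
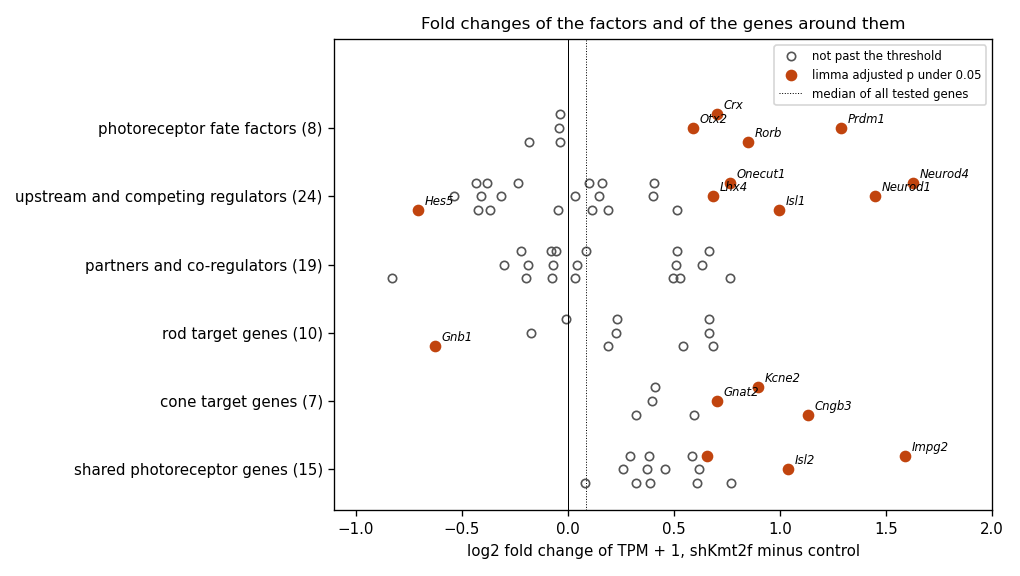
Log2 fold change of TPM + 1 (shKmt2f minus control, horizontal axis) of the 8 factors and of the tested genes of 5 surrounding lists, with 1 point per gene, filled where the limma adjusted p is under 0.05 and named where its values are given in the text. Points are staggered vertically only to separate them, and the dotted line is the median of all tested genes, 0.09.

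Markers of other retinal cells moved with the groups as well, and their counts too are to be read beside the 10.4% higher and 3.69% lower of all tested genes. The summed level of 10 ganglion cell markers was 16.0 to 24.4 TPM in control and 38.6 to 44.3 TPM in shKmt2f libraries, and all 5 tested ones passed, higher (Gap43, Ebf1, Nefl, Isl1 and Nefm), with Pou4f2 at 0 to 0.134 TPM in all libraries. The amacrine sum was 162 to 203 TPM in control and 226 to 263 TPM in shKmt2f libraries, with 2 of 7 tested markers higher (Meis2 and Tfap2b). For horizontal cells the sum was 142 to 177 and 166 to 221 TPM, with 2 of 4 higher (Onecut1 and Ndnf), and for bipolar cells, without Otx2, 11.4 to 13.7 and 12.2 to 19.3 TPM, with 1 of 3 higher (Lhx4). Progenitor markers summed to 636 to 855 TPM in control and 580 to 692 TPM in shKmt2f libraries, with 1 of 10 lower (Ccnd1, from 130.03 ± 13.5 to 65.2 ± 5.41 TPM) and none higher. Müller glia markers summed to 1192 to 1513 and 1343 to 1584 TPM, with 1 of 8 lower (Glul). A positive fold change was seen for 7 of these 8, beside 59.3% of all tested genes. Clu was higher in every shKmt2f library without passing. Pigment epithelium markers summed to 4.33 to 5.03 and 5.95 to 8.15 TPM, with the only tested one higher (Dct). Lens markers reached at most 0.456 TPM in sum and those of astrocytes at most 0.872 TPM, endothelial and mural markers summed to 62.9 to 106 and 73.9 to 110 TPM with none of 3 past the threshold, and C1qa of microglia was 0.350 to 1.10 and 0.816 to 1.54 TPM. The part of any of these cell types in the levels of Otx2, Crx, Prdm1 and Rorb was not tested.

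For each of the 4 factors that rose, the genes whose pattern over the 7 libraries was most like it were found among 8837 protein-coding genes of at least 5 TPM, by the root mean square difference of centred log2(TPM + 1). Vxn, which encodes a regulator of neuronal differentiation, was nearest to Prdm1, at 0.027, with mean levels of 38.9 and 98.2 TPM, followed by Tgfbr1 (0.069) and Nr1d2 (0.083). Lpin2 (0.040), Ccdc127 (0.053) and Zfp266 (0.054) were nearest to Otx2. Ttyh2 (0.069), Smarcd2 (0.071) and Crebrf (0.087) were nearest to Crx, and Kdm4c (0.062), Nsd3 (0.071) and Relch (0.074) to Rorb. Otx2 and Crx differed from each other by 0.133 on this measure, Rorb from Prdm1 by 0.247, and Otx2 from Prdm1 by 0.375. With the factor itself counted, 301 genes lay nearer to Otx2 than Crx did, and 43 nearer to Crx than Otx2 did. For Rorb and Prdm1, 247 genes lay nearer to Prdm1 and 1067 nearer to Rorb. For Otx2 and Prdm1, 5379 lay nearer to Otx2 and 990 nearer to Prdm1.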

How the data were processed

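Total RNA of sorted cells was profiled in 7 libraries. The submitters' processing notes name Salmon 0.11.3, sleuth 0.30.0 and the build GRCm38.p6. The tables that the authors deposited, 1 a library, give TPM per transcript. Per the file headers they also hold a p-value, a q-value and an effect on a natural log scale, which are the same in all 7 tables. Of 55475 rows, 71 hold no TPM. Read counts were not used here, so no counting interval is given, and low values are the least certain.

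TPM was summed per gene, genes were matched to current symbols (16129 of 16143), and limma 3.58.1 in R 4.3.3 was fitted on log2(TPM + 1) over all genes and over all transcripts, with a trend in the prior, robust estimation and the group as only term. The code was tested on simulated data. Single values were compared by an exact permutation test over 35 splits. Positions, lengths and GC are from the GRCm38 annotation, and GC was corrected by loess with a span of 0.3.

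The members, lists and alternatives were chosen with earlier results of these data known. Named genes were all 8 factors, their transcripts with a mean of at least 1 TPM, list genes past the threshold (up to 6 a list), up to 3 of the most abundant where fewer than 2 passed, and the 3 genes nearest in pattern to each factor that passed. Some list genes below the test level and cell markers are named besides, and some list genes that the rule takes are not reported here. Alternatives were other filters and pseudocounts, median-ratio scaling, GC and length corrections, other sums over transcripts, a replicate block and leaving out each library.

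Replicate numbers were not used as pairs in the main fit. Deviations of libraries with the same number correlated across genes at 0.0793, 0.0651 and 0.0597, all positive and under the level of 0.1 set for pairing. Between different numbers the correlations ranged from -0.169 to 0.0976. These values do not settle whether libraries with the same number belong together.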

Additional observations from a re-analysis of the deposited data

Results flagged for a closer look

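In shKmt2f replicate 3, Crx-201 held 61.3% of Crx TPM, where the other 3 shKmt2f libraries were at 72.4%, 71.9% and 73.3%. The gap was 0.878 of the range of the group, above the 95% critical value of Dixon's test for 4 samples. In all, 48 sets of 4 values were examined and 1 was marked, and chance marks about 1 in 20. The controls were at 59.3%, 50.1% and 68.8%.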

How the results depend on the processing

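The count of factors past the threshold was 4, and 2 after GC and length correction (Prdm1 and Otx2) and 1 to 4 with 1 library left out. Across the 17 alternatives, the fold change stayed positive for Otx2 (0.35 to 0.65, past the threshold in 12), Crx (0.47 to 0.82, in 11), Prdm1 (0.97 to 1.49, in 17) and Rorb (0.26 to 1.09, in 9). Of Nrl, Nr2e3, Rxrg and Thrb none passed under any alternative. Single transcripts past the threshold numbered 3, and 0 with a pseudocount of 0.1, 0 without a filter, and 0 to 11 with 1 library left out, where 12 to 17 had an unadjusted p under 0.05, beside 17.3% to 27.4% of all transcripts. The 11 were without control replicate 2, where all transcripts were also called more often, and 1 passed without control replicate 3. Listed genes past the threshold numbered 11 higher, and 6 with a filter of 5 TPM, which leaves 54 to test, and 3 to 15 with 1 library left out. Lower ones numbered 2, and 6 with median-ratio scaling, 4 after GC and length correction, 6 with a length-weighted sum, and 1 to 3 with 1 library left out. Where no cause is given here, the cause was not tested. Over all genes, 1755 passed, and 283 to 3004 with 1 library left out.

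With the replicate number as a block, over replicates 1 to 3, 4 factors passed, and 8 listed genes were higher and 3 lower. The block called 1380 genes where the same 6 libraries without it called 504. Control replicate 1 correlated best with shKmt2f replicate 3 (0.0976), and the numbers were not read as pairs. Whether they pair the libraries was not settled.

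With 1 library left out, the smallest exact p is 0.0667 (2 against 4) or 0.1 (3 against 3), so no share of a main transcript and no balance could pass there. The difference of Nrl to Prdm1 then ranged from -1.58 to -0.89 and that of Nr2e3 to Crx from -1.03 to -0.74. TPM keeps no depth, so no limit from sampling can be given for Thrb, Rxrg or transcripts near 1 TPM.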
